A study of Mus musculus with 6 samples.

Results

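The regions described here are stretches of the mouse genome that carried mono-methylation of histone H3 at lysine 4 (H3K4me1) in resting macrophages, and the question put to them is how the coactivator p300 changed there after lipopolysaccharide (LPS). They were chosen from the deposited H3K4me1 peaks of untreated cells, without reference to where p300 peaks had been called. The 84743 peaks on chromosomes 1 to 19 and X became 49518 regions once peaks less than 1 kb apart were merged. Of these, 28069 regions (56.7%) held at least 20 p300 reads over the 4 p300 libraries and were tested.

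The cells were primary macrophages grown from the bone marrow of female Fvb mice in medium conditioned by L929 cells, and all were at day 7 of differentiation. The labels name no transgene or deletion in any group. One group had no treatment and the other received 10 ng/ml LPS for 2 h. p300 was precipitated from both, with 2 libraries per condition that the series' design text calls different biological replicates. PU.1 had 1 library per condition, and H3K4me1 and input DNA had 1 library each from untreated cells, so no spread between libraries could be measured for them.

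p300 is a histone acetyltransferase that has no sequence preference of its own and is brought to active enhancers by transcription factors. H3K4me1 marks enhancers more broadly, including ones that are accessible but not yet active. PU.1 is an ETS-family factor required for macrophage development, and it helps to open and mark enhancers in these cells. LPS signals through the Toll-like receptor TLR4 and activates NF-kB, AP-1 and interferon regulatory factors, which bind partly at enhancers marked beforehand. A ChIP signal from many cells does not separate p300 at a region in more cells from more p300 per cell.

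The p300 libraries held 5744811 to 7828655 deposited reads, of which 5503587 to 6428281 were distinct positions on the chromosomes used. H3K4me1 regions took 7.20% and 14.1% of these distinct reads in untreated replicates 1 and 2, and 8.10% and 12.3% in LPS replicates 1 and 2. Input placed 8.63% of its reads there. Both replicate 1 libraries thus lay below input in these regions, and both replicate 2 libraries lay above it. The mean was 10.7% ± 4.89 in untreated and 10.2% ± 2.95 in LPS cells (SD, n = 2 each), a difference of -0.47 percentage points (exact permutation test, two-sided, p = 1.0). The smallest p this test can give for 2 libraries against 2 is 0.333. The 2 replicate numbers lay further apart than the 2 conditions.

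Few regions passed the test for a change with LPS, and those that did were rises. p300 rose at 14 of the 28069 regions (0.0499%) and the lower calls numbered 0 (0%) by limma voom with Benjamini-Hochberg adjusted p under 0.05. Before adjustment, 925 regions (3.3%) had a p under 0.05 and a higher value after LPS, and 330 (1.18%) had one and a lower value. limma-trend called 17 regions higher (0.0606%) and 0 lower, and at unadjusted p under 0.05 it had 929 higher (3.31%) and 413 lower (1.47%). The median log2 fold change over all tested regions was -0.00, with quartiles of -0.34 and 0.38. Libraries were scaled by their median ratio over these same regions, which sets this median near 0. It therefore does not measure a shift shared by all regions.

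**Figure D1:**
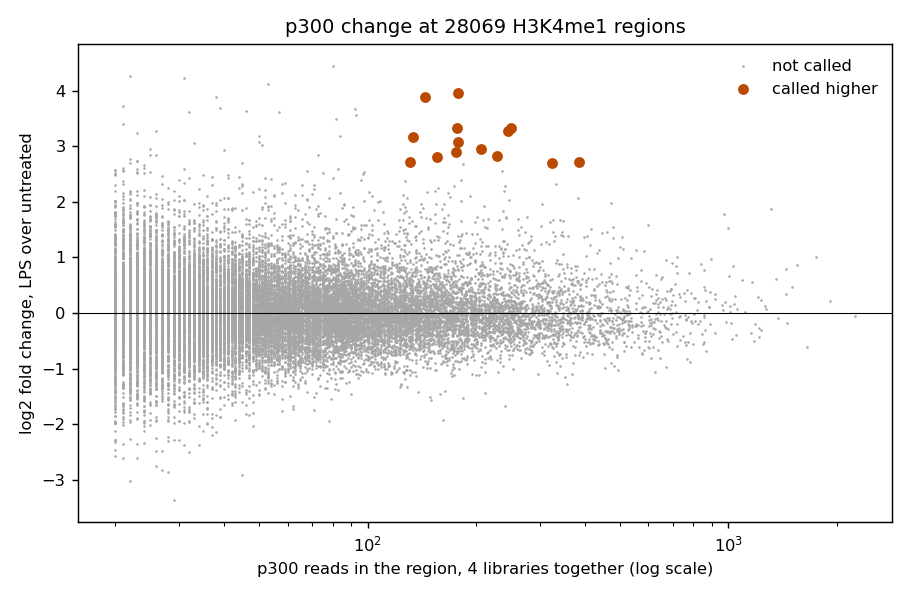
Each point is 1 of the 28069 tested H3K4me1 regions, with its p300 reads summed over the 4 libraries on a log axis and its log2 fold change of p300, LPS over untreated, on the vertical axis. The 14 regions called higher (orange) lie between 2.69 and 3.95 on the log2 scale and hold 131 to 385 reads, while 13 other regions with 40 or more reads and folds at least as large as the smallest called one were not called.

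The calls rested on all libraries being present and on the scaling. Without untreated replicate 1, untreated replicate 2, LPS replicate 1 or LPS replicate 2 in turn, limma called 0 regions each time, with a single library left in an arm. The smallest adjusted p was then 0.117, 0.335, 0.408 and 0.999. Scaling by total distinct reads or by reads in bins without peaks also gave 0 calls, with smallest adjusted p of 0.210 and 0.894. With total reads, 338 regions (1.2%) were higher and 58 (0.207%) lower at unadjusted p under 0.05. The log2 fold changes of the 14 regions remained above 0 in all these fits, between 2.09 and 4.55.

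The largest fold was at chr1:164094540-164096038, a region of 1499 bp made of 3 merged H3K4me1 peaks. It held 3.57 and 5.30 normalised p300 reads in untreated replicates 1 and 2, and 60.9 and 105 in LPS replicates 1 and 2. Normalised reads are reads divided by a library factor, the median of ratios over tested regions. Every LPS value lay far above every untreated value, and the log2 fold change was 3.95 ± 0.61 (SE; limma adjusted p = 0.0276). The SE of this and the following regions comes from a variance that limma shares across regions, more than from the 2 replicates of the region itself.

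The next region in rank, chr11:20914131-20915727, was marked by a single H3K4me1 peak. Its untreated libraries held 10.7 and 2.27 normalised p300 reads and its LPS libraries 45.7 and 84.0. The conditions did not overlap, though the untreated replicates differed from each other more here than at the first region (log2 fold change 3.88 ± 0.63, SE; limma adjusted p = 0.0276). Its log2 fold change was 2.46 without untreated replicate 2 and 4.55 without untreated replicate 1, so the size of this rise depended on the untreated libraries. A second called region lay 29.8 kb further along the chromosome, at chr11:20945546-20949793. It was the widest of the 14 at 4248 bp, with 23.8 and 22.7 normalised p300 reads in untreated cells and 114 and 214 after LPS. Its untreated values nearly coincided, and its log2 fold change was 2.71 ± 0.44 (SE; limma adjusted p = 0.0276). Between this pair lay a region from 20933490 to 20935087 with a log2 fold change of 2.10 that did not pass the test (limma adjusted p = 0.372), singled out here after its value was seen.

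The third region on chromosome 11, chr11:83354229-83355763, held 5.95 and 7.57 normalised p300 reads before LPS and 52.0 and 106 after it. The conditions did not overlap, and the log2 fold change was 3.32 ± 0.53 (SE; limma adjusted p = 0.0276). On chromosome 19, chr19:34714567-34716032 gave 15.5 and 6.81 normalised reads untreated and 68.5 and 152 with LPS, also a log2 fold change of 3.32. Here the untreated replicate with more p300 was replicate 1, while in LPS cells replicate 2 was higher, and the log2 fold change was 2.67 without untreated replicate 2 and 3.91 without LPS replicate 1. On chromosome 5, chr5:92777008-92779139 went from 10.7 and 8.33 to 57.1 and 157 normalised reads (log2 fold change 3.27). Its LPS replicates stood furthest apart among the first 10 regions, at 107 ± 70.9 (mean ± SD, n = 2). Its log2 fold change was 4.02 without LPS replicate 1 and 2.57 without LPS replicate 2.

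The remaining regions among the 10 largest rises had log2 fold changes of 2.82 to 3.17. At chr18:65535025-65536407, p300 was 9.52 and 4.54 normalised reads untreated and 45.7 and 73.5 after LPS. At chr12:27123953-27124907, the narrowest region with 955 bp, both untreated libraries gave 8.33 and the LPS libraries 53.3 and 103. Both had no overlap between conditions. At chr6:21947481-21949585, made of 4 H3K4me1 peaks, p300 was 10.7 and 9.84 normalised reads untreated and 57.1 and 122 after LPS. At chr4:104940851-104942079 the values were 5.95 and 12.1 against 50.8 and 101. At chr1:107760322-107762543 they were 14.3 and 10.6 against 58.4 and 136. In these 5 regions the lowest LPS value was at least 45.7 and the highest untreated value 14.3, with limma adjusted p of 0.0276 to 0.0405. The log2 fold change on chromosome 18 was 2.53 without untreated replicate 2. That on chromosome 1 was 3.45 without LPS replicate 1 and 2.23 without LPS replicate 2.

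Beside the second chromosome 11 region, the other called rises outside the 10 largest were at chr13:63802132-63803328 (log2 fold change 2.81), chr16:84605924-84607487 (2.72) and chr3:142222607-142225066 (2.69). The last held 15.5 and 21.2 normalised p300 reads untreated and 78.7 and 194 after LPS, without overlap. Its log2 fold change was 3.38 without LPS replicate 1 and 2.09 without LPS replicate 2. At chr13:63802132-63803328 the values were 7.14 and 9.84 untreated and 47.0 and 87.4 after LPS. At chr16:84605924-84607487 they were 7.14 and 8.33 against 41.9 and 70.8. All 3 had limma adjusted p between 0.0385 and 0.0426, and the one on chromosome 13 was the only called region with a deposited p300 peak from untreated cells. These 3 and the second one on chromosome 11 were described after their values were seen.

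**Figure D2:**
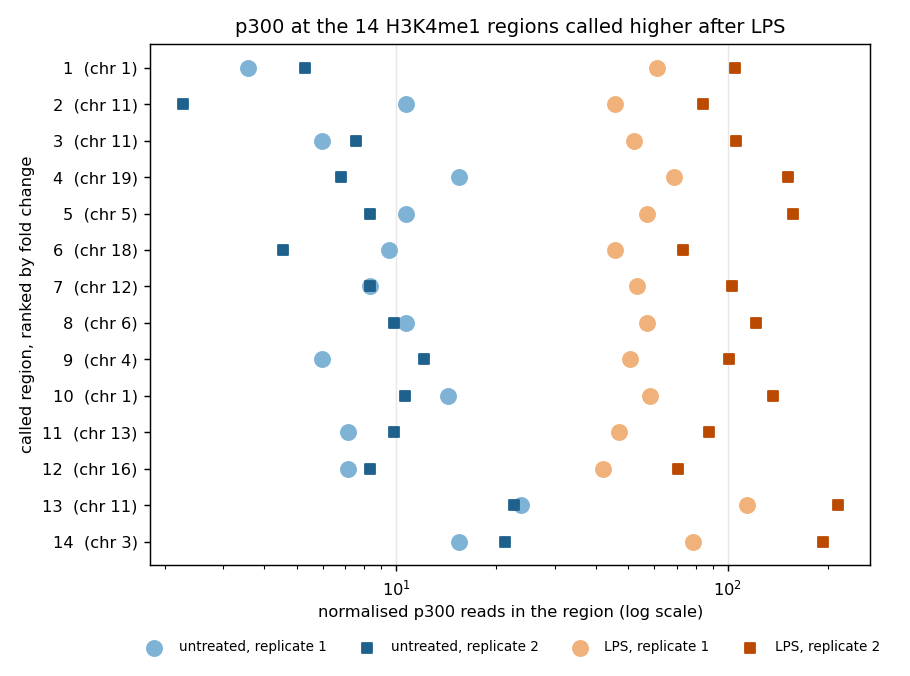
Normalised p300 reads (log axis) in each of the 4 libraries at the 14 regions called higher, from the largest fold (top) to the smallest, with the chromosome in brackets. Untreated values (blue) lie between 2.27 and 23.8 and LPS values (orange) between 41.9 and 214, and LPS replicate 2 (square) is above LPS replicate 1 (circle) in every region.

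Over the 14 regions together, the p300 read density before LPS was close to that of input. It was 0.727 times input in untreated replicate 1 and 1.15 times in untreated replicate 2, and became 4.45 and 12.6 times in LPS replicates 1 and 2. Over the 28055 regions not called, the corresponding ratios were 0.829, 1.71, 0.941 and 1.47. These values describe the calls and do not test them, since the same libraries chose the regions. Untreated replicate 1 was below input even over the 3281 regions with a p300 peak in both lists (0.866 times). Untreated replicate 2 was at 2.74 times input there. A ratio below input in untreated replicate 1 therefore does not show that resting p300 was low. All 14 regions overlapped a deposited p300 peak from LPS cells. For 13 of them it was the only kind of p300 peak, against 6.97% of all tested regions. Those peaks were called on the same p300 libraries, so these overlaps also describe the calls and do not test them.

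The resting H3K4me1 signal set the regions but not the p300 values compared in them. At the 14 called regions it lay near that of all tested regions. H3K4me1 reads numbered 26 to 171 with a median of 63, and the median over all tested regions was 68. The log2 ratio of H3K4me1 to input ranged from 1.20 to 4.06 with a median of 2.45, beside 2.56 over all tested regions. Per kb, the medians were 39.3 and 38.9 H3K4me1 reads. As a group, the called regions thus lay around the middle of the resting H3K4me1 levels of all tested regions. The median log2 ratio to input was 2.63 in regions of 80 to 159 p300 reads and 2.74 in those of 160 or more. The 14 therefore lay lower beside regions of like p300 depth, a difference that was not tested.

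Within the regions, read densities were set around the point of most p300. The 200 bp window with the most p300 reads was found in each region and the densities of all libraries were set around its middle, the p300 maximum. In the 100 bp just before the maximum, LPS replicates 1 and 2 reached 19.3 and 58.5 reads per kb per 1000000 distinct reads at the 14 regions, and the untreated replicates 1.22 and 2.78. All mean densities around the maximum below are on this scale. In the bin centred 950 bp before it, LPS replicates 1 and 2 had 0.519 and 1.97 and the untreated replicates 0.444 and 0.362. At 950 bp after it, they had 1.17 and 4.92 against 0.333 and 1.33. LPS replicate 2 was still at 4.19 at 1350 bp after the maximum, beside 1.11 at 1350 bp before it. Before and after follow genome coordinates here, and the part of single wide regions in this mean was not tested. That p300 is highest at this point, and over a width near 200 bp, follows from choosing the point with a 200 bp window. The PU.1 and H3K4me1 signals around it were not used to choose it.

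H3K4me1 dipped at that point in the mean of the 14 regions. Its density was 2.34 in the 100 bp after the maximum, 7.61 at 250 bp before and 7.26 at 350 bp after. Input was 0.826 just after the maximum. PU.1 was 26.3 in the untreated and 40.1 in the LPS library there, so it peaked where p300 did in both. At the 28055 regions not called, PU.1 was 21.1 and 20.3 in the same bin, so its peak there was not particular to the 14. The dip was not shared by every region: H3K4me1 was lower within 200 bp of the maximum than at 300 to 1000 bp from it in 5 of the 14, against 30.0% of all tested regions and 72.5% of those with 100 or more p300 reads. In 7 of the 14 the maximum lay outside any single H3K4me1 peak, in a gap closed by the merging, whereas it lay inside a peak in 88.6% of all tested regions and in 75.2% of the 5928 with 100 or more reads. At chr3:142222607-142225066, for example, H3K4me1 was 2.5 reads per kb at the p300 maximum and 56.4 in the flanks, here as reads not divided by library size. At chr1:107760322-107762543 it was 47.5 and 31.4 in the same unit, so a single shape did not describe them all.

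**Figure D3:**
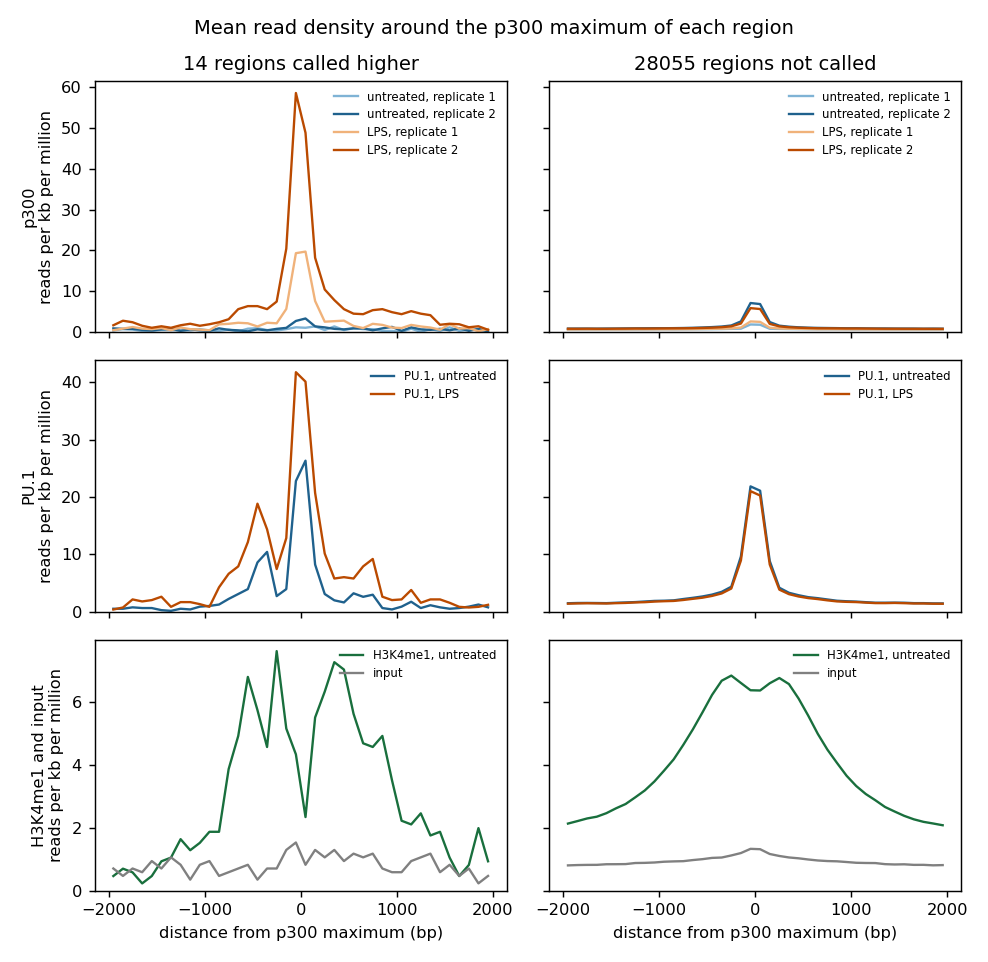
Mean reads per kb per 1000000 distinct reads in 100 bp bins against the distance from the p300 maximum, for p300 (top), PU.1 (middle), and H3K4me1 with input (bottom), at the 14 regions called higher (left) and the 28055 not called (right). On the left, LPS replicate 2 of p300 peaks at 58.5 and the untreated replicates at no more than 3.38, PU.1 is present in untreated cells and higher after LPS, and H3K4me1 dips to 2.34 just after the p300 maximum.

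Densities in peaks and in the gaps between them were also compared over all 19456 H3K4me1 regions with more than 1 peak, whatever their p300 reads. H3K4me1 itself was 0.179 times as dense in the gaps as in the peaks, which the peak calling fixes, and input 0.762 times. p300 was 0.680 and 1.12 times as dense in gaps in untreated replicates 1 and 2, and 0.850 and 1.09 times in LPS replicates 1 and 2. PU.1 was 1.33 times as dense in gaps untreated and 1.39 times after LPS. PU.1 and the more enriched p300 libraries were therefore denser between H3K4me1 peaks than under them, and the less enriched p300 libraries, like input, were not.

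PU.1 was present before LPS at most of the called regions. Of the 14, 12 (85.7%) held a PU.1 peak called in untreated cells, against 77.9% of all tested regions and 97.2% of those with 100 or more p300 reads. The 2 without one were chr6:21947481-21949585 and chr13:63802132-63803328, and both overlapped a PU.1 peak of the LPS list. The p300 maximum lay within 100 bp of an untreated PU.1 peak in 7 of the 14 (50%), against 58.6% of all tested regions and 79.3% of those with 100 or more p300 reads. It lay within 100 bp of an LPS PU.1 peak in 12 (85.7%), against 58.8% and 79.3%. The first share lay below and the second above those of other regions, and neither difference was tested. In the other 7 the p300 maximum was more than 100 bp from any resting PU.1 peak. Since the header of the deposited PU.1 peaks for untreated cells mentions LPS, the label was checked on the reads. Of the 14147 peaks in that list alone, 98.1% were denser in the untreated PU.1 library, and of the 15146 found in the other list alone, 97.6% were denser in the LPS library.

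PU.1 reads were higher in the LPS library than in the untreated one at all 14 regions, against 46.7% of all tested regions. The ratio, scaled by the median over regions, ran from 1.04 to 8.08 with a median of 2.52. The largest was at chr5:92777008-92779139, with 22 untreated and 177 LPS reads of PU.1 (ratio 8.08, exact 95% interval 5.17 to 13.2). The smallest was at chr11:20945546-20949793, with 252 and 262 reads (ratio 1.04, 0.875 to 1.25), so p300 rose there while the PU.1 interval included no change. These intervals cover counting error in 2 libraries and do not measure spread between cultures.

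Across all tested regions, PU.1 and p300 moved together where PU.1 changed. Among 442 regions with at least 40 PU.1 reads and at least 2-fold more PU.1 in the LPS library, the median log2 fold change of p300 was 0.80. It was 0.60 in the replicate 1 pair and 1.10 in the replicate 2 pair. All 4 p300 libraries were apart with LPS higher in 56.1% of them (16.6% of all tested regions) and with LPS lower in 2.94% (16.1%). In the 321 regions with PU.1 at least 2-fold lower the median was -0.28, and 29.0% were apart with LPS lower. In the 19571 regions with PU.1 within 2-fold it was -0.03 with quartiles of -0.34 and 0.32, and 15.4% were apart with LPS higher and 17.0% with LPS lower, near the shares over all regions.

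Regions with PU.1 at least 2-fold higher held 8 of the 14 called ones, and those within 2-fold held 5. Over 20334 regions with at least 40 PU.1 reads, the log2 change of PU.1 and that of p300 had a Pearson's r of 0.39. It was 0.56 over the 2849 of them where p300 was at least 2 times input. In the replicate 1 and 2 pairs of p300 taken alone, r was 0.33 and 0.56 over the 2849 regions, and 0.19 and 0.38 over the 20334. All these values use the same 2 PU.1 libraries, and regions are not independent samples.

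The class of PU.1 peak made a smaller difference. The 1278 regions with a PU.1 peak in the LPS list alone had a median log2 fold change of p300 of 0.15, with 0.09 and 0.21 in the replicate 1 and 2 pairs. The 21858 regions with an untreated PU.1 peak had -0.02, and the 4933 without any PU.1 peak had 0.07. The quartiles of the last class were -0.33 and 0.48, wider than the differences between classes.

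The change in p300 was also set against the resting H3K4me1 level. With regions split evenly into 4 classes, the 7018 with the fewest H3K4me1 reads per kb had a median log2 fold change of p300 of 0.08, and the 7017 with the most had -0.08. In the replicate 1 pair these medians were 0.09 and -0.00, and in the replicate 2 pair 0.13 and -0.15. The libraries were apart with LPS higher in 18.97% and lower in 13.0% of the first class, and higher in 12.5% and lower in 20.2% of the last. The difference between classes was not tested. The median number of p300 reads was 35 in the first class and 86 in the last, and its part in the difference was not tested. Relative to input, the p300 level in the same classes went from 0.913 to 0.819 in untreated replicate 1 and from 1.46 to 1.94 in untreated replicate 2, and from 1.03 to 0.921 and from 1.45 to 1.54 in LPS replicates 1 and 2. By this measure of H3K4me1, the p300 level thus did not follow it in the same direction in all libraries. With classes of H3K4me1 over input instead, the p300 level rose from the lowest to the highest class in all 4 libraries. It went from 0.641 to 1.09 and from 1.24 to 2.23 in untreated replicates 1 and 2. In LPS replicates 1 and 2 it went from 0.754 to 1.20 and from 1.16 to 1.87. Both measures then divide by the same input reads, and the part of this was not tested.

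The 2 replicate numbers of p300 gave ratios with little in common over all regions. The log2 ratio of LPS to untreated in the replicate 1 pair and that in the replicate 2 pair had a Pearson's r of 0.13 over the 28069 regions. It rose with reads, from 0.05 in 11438 regions of 20 to 39 reads to 0.16 at 40 to 79, 0.33 at 80 to 159 and 0.56 in 2988 regions of 160 or more. Both pairs share depth and region width, and counting error is largest in the first class. Both ratios were above 0 in 27.5% and below 0 in 26.0% of all regions. At the 14 called regions the ratio was 1.99 to 3.89 for replicates 1 and 3.02 to 4.99 for replicates 2 on the log2 scale, and these ratios took part in the call.

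**Figure D4:**
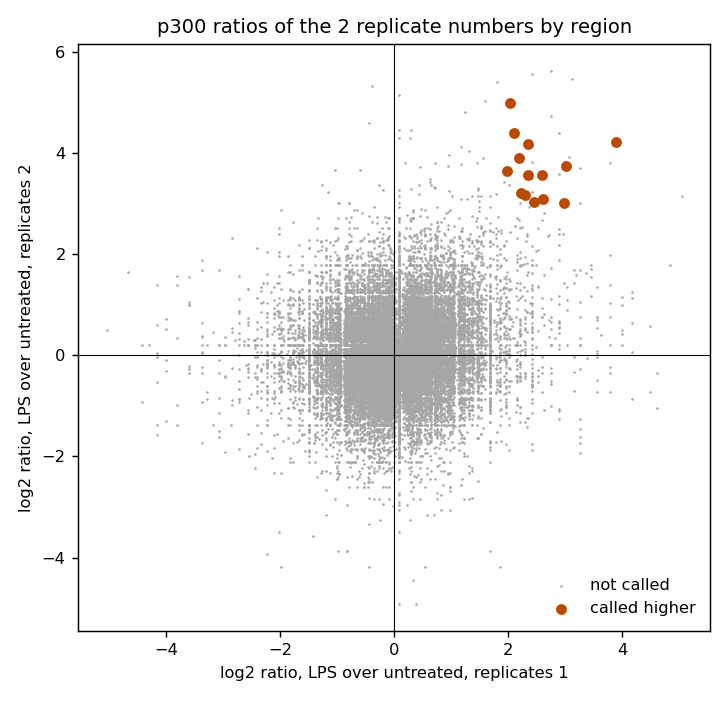
Log2 ratio of p300, LPS over untreated, in the replicate 1 pair (horizontal) and the replicate 2 pair (vertical) for each tested region, with 0.5 reads added to each count. The 28055 regions not called (grey) form a round cloud around 0, and the 14 called regions (orange) lie in the upper right, with the replicate 2 ratio above the replicate 1 ratio in all 14.

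The neighbours of the 14 regions were taken only among tested regions without a call. These separate H3K4me1 regions, with reads of their own, were mostly above 0 in p300 change. Within 50 kb of a called region lay 47 tested regions without a call. Their median log2 fold change was 0.84, and 0.83 and 1.00 in the replicate 1 and 2 pairs. Of the 47, 37 were above 0, 17 (36.2%) had an unadjusted p under 0.05 and a higher value, beside 3.1% of regions more than 2000 kb away, and 0 had one and a lower value. The 33 regions at 50 to 100 kb had a median of 0.14, and the 183 at 100 to 500 kb had 0.02. An unadjusted p under 0.05 with a higher value was found for 5 of the 33 (15.2%) and 19 of the 183 (10.4%), so both shares also lay above that far from called regions. The differences between distance classes were not tested. PU.1 in the LPS library was 1.46 times that in the untreated one within 50 kb by the median, beside 0.967 times over regions more than 2000 kb away.

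Single loci differed in this. Around chr3:142222607-142225066, all 3 tested neighbours without a call within 100 kb were above 0, with a median of 2.12. Around chr18:65535025-65536407, all 5 were above 0, with a median of 1.07, and the highest, from 65487905 to 65489359, reached 2.37 (limma adjusted p = 0.0938). Around chr12:27123953-27124907, all 4 were above 0, with a median of 1.15. Around chr5:92777008-92779139, 4 of 9 were above 0 and the median was -0.01. Around chr11:83354229-83355763, 6 of 14 were above 0 with a median of -0.04, although the region from 83346422 to 83350221 had 2.07 (limma adjusted p = 0.255). Even so, 2 of these 9 and 3 of these 14 had an unadjusted p under 0.05 and a higher value. Around chr1:107760322-107762543 this held for 0 of 9, and the largest log2 fold change was 0.89. It held for 0 of 4 around chr1:164094540-164096038, although all 4 were above 0 with a median of 0.94. Around chr13:63802132-63803328 it held for 0 of 1, and that neighbour had a log2 fold change of 0.04. Some called regions thus stood within a stretch of higher p300, and around others fewer of the neighbours were above 0.

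**Figure D5:**
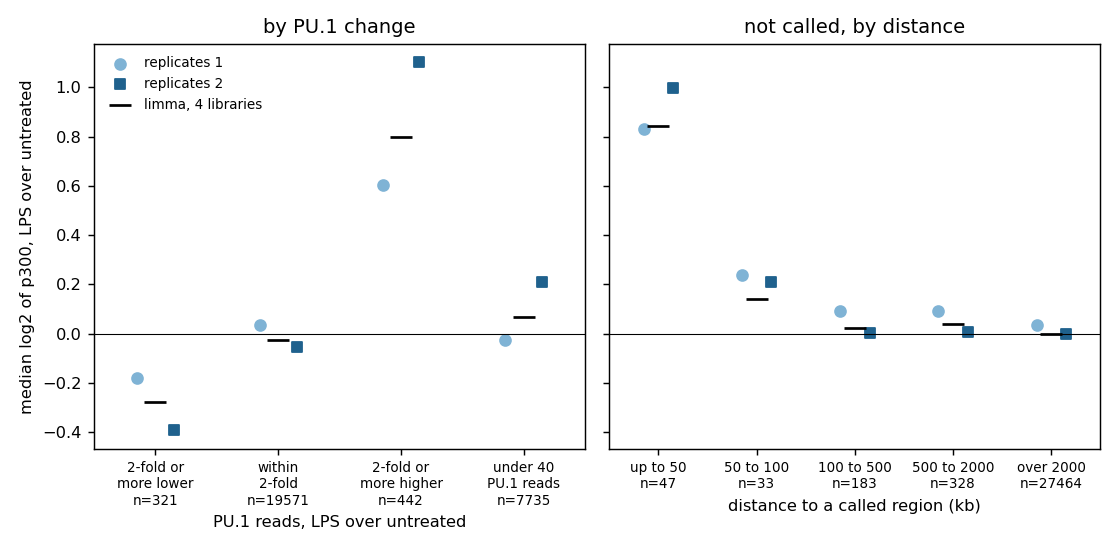
Median log2 of p300, LPS over untreated, by the change in PU.1 reads (left) and, for regions not called, by distance to the nearest called region in kb (right). Bars give the limma fit on 4 libraries, circles the replicate 1 pair and squares the replicate 2 pair. The medians are highest where PU.1 was at least 2-fold higher (0.80) and within 50 kb of a called region (0.84), lowest where PU.1 was at least 2-fold lower (-0.28), and between -0.03 and 0.14 in the other classes.

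No region passed the test for a loss in the fit with treatment as its only term. The 3 with the smallest unadjusted p were chr4:19819088-19823442, chr4:144607288-144611153 and chr9:121543508-121547262. The first held 35.7 and 80.3 normalised p300 reads untreated and 15.2 and 12.2 after LPS (log2 fold change -1.92 ± 0.47, SE; limma adjusted p = 0.352). The others had log2 fold changes of -1.68 and -1.45 with limma adjusted p of 0.506 and 0.622. In each of the 3 the LPS libraries lay below the untreated ones without overlap, and PU.1 reads went from 280 to 170, 270 to 193 and 240 to 120. Each overlapped an untreated p300 peak and no LPS p300 peak, but those peaks were called on the same p300 libraries and are no separate evidence.

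The regions with the most p300 were long and had no call. chr16:25040782-25064728 spanned 23947 bp and 12 H3K4me1 peaks, with 230 and 883 normalised p300 reads untreated and 343 and 542 after LPS (log2 fold change -0.05 ± 0.61, SE; limma adjusted p = 0.997). The conditions overlapped fully, and it was replicate 2 that was high in both. chr9:65380704-65404985 was alike, with 226 and 609 against 303 and 593 (log2 fold change 0.21). chr11:117805578-117829123 had 214 and 298 against 315 and 806, without overlap, and a log2 fold change of 1.00 ± 0.55 (SE; limma adjusted p = 0.985). PU.1 there went from 831 to 1083 reads.

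The read filter kept 28069 regions and left out 21449. Those left out were narrow, with a median of 503 bp against 1774 bp, and 452 of them (2.11%) overlapped any p300 peak, beside 7827 (27.9%) of those kept. At the limit, 886 regions with exactly 20 reads held on average 4.67 and 5.84 reads without LPS and 4.16 and 5.32 with it (replicates 1 and 2). The 921 with 19 reads held 4.41, 5.43, 3.99 and 5.17. On average both conditions contributed reads at the limit, while 81 tested regions had fewer than 5 reads in one condition. With regions of a single read or more included, limma called 22 of 49414 regions higher (0.0445%) and 0 lower.

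Counting p300 over PU.1 peaks instead of H3K4me1 regions gave more calls. Over the 15616 untreated PU.1 peaks that overlap these regions and had at least 20 p300 reads, an alternative chosen after seeing the data, limma voom called 87 peaks higher (0.557%) and 1 lower (0.0064%), with a median log2 fold change of 2.82 at the higher ones. Of the 14 regions, 9 contained such a peak. This changes which sites are counted as well as their width. Of the other region definitions, merging only overlapping or touching H3K4me1 peaks gave 6 higher calls (0.0176%) and 0 lower, with 4 of the 14 among them, and merging peaks less than 3 kb apart gave 0 calls (smallest adjusted p = 0.101). Both narrower and wider H3K4me1 regions thus gave fewer calls.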

How the data were processed

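Read positions of chromatin immunoprecipitation libraries (p300 with and without LPS, PU.1 with and without LPS, H3K4me1) and of input were used as deposited, on build mm9 per the submitters' processing notes. Each deposited line was 1 read of 36 bp; the aligner is not given in the sources used here. The deposited peak lists come from MACS and give each peak a score, 10 times the -log10 p-value, per the file headers and column notes. p300 peaks were called on merged replicates, per the design text. Chromatin had been fixed for 10 min in 1% formaldehyde, per the labels' protocols.

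Reads repeated at a position and strand were counted once. Their 5′ ends, moved 100 bp downstream, were counted over H3K4me1 peaks merged below 1 kb. Regions with 20 or more p300 reads were fitted with limma voom (limma 3.58.1, R 4.3.3), treatment as the single term, libraries scaled by the median of ratios, adjusted p under 0.05 over all regions. Counting used Python 3.11.15 with numpy 2.4.6. The counting, merging and overlap code and the main fit were tested on simulated data. Overlap means at least 1 bp. PU.1 ratios carry exact 95% intervals conditional on their sum, for counting error only.

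Named regions were the 10 largest rises and falls among calls with 40 or more reads and no overlap between conditions (without a call, the 3 smallest unadjusted p), and the 3 regions with most p300 reads. Members, lists and tests were chosen with earlier results of these data known. The gene annotation at hand was on GRCm38.p6, so regions are given by mm9 position, planned gene lists and cell type markers were not used here, and no sequence is printed. Alternatives covered scaling, read filter, repeated reads, shift, merging, limma-trend, library weights, a replicate block, density over input and leaving out each library.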

Additional observations from a re-analysis of the deposited data

How the results depend on the processing

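The 14 higher calls became 22 with no filter beyond 1 read, 6 with only overlapping or touching peaks merged, 29 among the 4491 regions with p300 at least 2 times input, 404 with the replicate block and 87 at untreated PU.1 peaks alone, the last chosen after seeing the data. They became 0 with a minimum of 40 reads, peaks less than 3 kb apart merged, total distinct reads or background bins as library size. Without 1 replicate at a time the higher calls ranged from 0 to 0 and the lower calls from 0 to 0. Lower calls, 0 in the reported fit, were 81 with the replicate block and 1 at untreated PU.1 peaks. The cause of these shifts was not tested. All reads kept, a 50 bp shift, limma-trend and library quality weights gave 14, 16, 17 and 14 higher calls, of which 13, 14, 13 and 14 were among the reported ones.

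No label says that a replicate number marks a shared culture or day, and with 2 pairs the numbers were not taken to pair the libraries. Same-numbered libraries were nonetheless alike in part. The r between their deviations was 0.21. Repeat reads were 3.02% and 4.03% in replicates 1 and 22.0% and 25.8% in replicates 2. Untreated and LPS replicates 2 shared read positions 6.49 times as often as uniform placement gives. For untreated and LPS replicates 1 it was 3.08 times, below every differently numbered p300 pair (3.11 to 3.78 times). All 14 reported regions were among the 404 of the block, whose median log2 fold change was 1.55. In the block fit limma took the variance wholly from all regions together. Its p-values therefore do not use the replicate spread of a region itself. The same held with total distinct reads or background bins as library size, and among regions with p300 at least 2 times input. The block also moved the 3 named falls past the threshold, at chr4:19819088-19823442 (limma adjusted p = 3.09e-06), chr4:144607288-144611153 (1.01e-05) and chr9:121543508-121547262 (0.000959), and the rise at chr11:117805578-117829123 (0.000378). The 14 log2 fold changes stayed above 0 in every fit of whole regions, but the fold moved over 1.5 times at some. With only touching peaks merged, it became 2.45 at chr19:34714567-34716032, 1.70 at chr12:27123953-27124907 and 1.48 at chr3:142222607-142225066. With a 3 kb merging distance it became 2.48 at chr11:83354229-83355763, 1.51 at chr18:65535025-65536407, 2.16 at chr6:21947481-21949585 and 1.09 at chr4:104940851-104942079. Under limma-trend it became 3.13 at chr11:20914131-20915727. It moved so at 1, 3, 4 and 3 regions without untreated replicates 1 and 2 and LPS replicates 1 and 2, as given with those regions. At chr16:25040782-25064728 the log2 fold change of -0.05 became 0.074 with only touching peaks merged, and -1.05 to 0.90 without 1 replicate at a time (0.90 without untreated replicate 2, 0.34 without LPS replicate 1). At chr9:65380704-65404985, 0.21 became -0.55 without untreated replicate 1 and -0.26 without LPS replicate 2. The share of p300 reads inside regions differed by -0.47 percentage points between conditions, and by -3.93 to 2.99 without 1 replicate at a time (2.99 without untreated replicate 2, 1.62 without LPS replicate 1). Regions of 20 to 39 reads, 11438 of those tested, had no call at this depth, which does not show that they were unchanged.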
